A study of Mus musculus with 163 samples.

Results

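The 4 genes described here, Pla2g12b, Cxcl13, Psd2 and Lgi2, gained transcript as mouse oocytes grew in the ovary and were already higher in growing oocytes that had formed in culture. They were chosen by measured values, as genes higher in growing oocytes derived from cultured gonads than in growing oocytes taken from mice. They make up 4 of the 21950 genes counted. The values that made the choice are given as a description and support nothing by themselves.

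RNA was sequenced from 163 single oocytes by Smart-seq2, a full-length protocol for polyadenylated RNA, and each oocyte was a growing oocyte (GRO) or a fully grown oocyte (FGO). The GROs comprised 24 in vivo, 24 gonad-derived and 23 iPSC-derived oocytes. The FGOs comprised 20 in vivo, 24 gonad-derived and 24 iPSC-derived oocytes and 24 oocytes grown from follicles that had been dissected at 6 days after birth (6 dpp). The iPSC-derived oocytes came from BVSC-iPSC, a single female line of induced pluripotent stem cells that carries the Blimp1-Venus and Stella-ECFP reporters. Those cells had passed in vitro differentiation to primordial germ cell-like cells (IVP), then differentiation to oocytes (IVD) in ovaries rebuilt with gonadal somatic cells of Swiss Webster embryos. Gonad-derived oocytes came from re-aggregated gonads of E12.5 embryos and passed IVD. FGOs of both sources then passed in vitro growth of their follicles (IVG), 6 dpp oocytes passed IVG alone, and in vivo oocytes passed no culture. The labels give no age for the mice behind the in vivo oocytes, and name no animal, embryo or culture for any oocyte. Each group therefore counted as 1 sample, and the comparisons carry no replicate check, test or p-value.

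Oocyte growth is a long phase in which an oocyte arrested in meiotic prophase enlarges and stores transcripts and proteins for the early embryo. Transcription is active in growing oocytes and falls silent when growth is complete, so a transcript that accumulates during growth becomes part of the maternal store. The 4 genes belong to separate families. PLA2G12B is a member of the secreted phospholipase A2 family that lacks catalytic activity and is known for its part in loading lipoproteins with lipid in the liver. CXCL13 is a secreted chemokine that attracts B cells through the receptor CXCR5. PSD2 is a guanine nucleotide exchange factor for ARF6, a small GTPase of membrane traffic. LGI2 is a secreted protein with leucine-rich repeats from a family that binds neuronal receptors such as ADAM22.

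Coordinates are those of GRCm38 in RefSeq. Pla2g12b (Entrez 69836) lies on the plus strand at chr10:59403420-59421976. Cxcl13 (Entrez 55985) lies on the plus strand at chr5:95956939-95961068, and Lgi2 (Entrez 246316) lies on the minus strand at chr5:52533517-52566306. Reads had been counted over the exons of 1 transcript per gene, with deposited exonic lengths of 1226 bases for Pla2g12b, 1322 for Cxcl13, 5131 for Psd2 and 2223 for Lgi2. The longest GENCODE transcript of Lgi2 has 6456 bases, so its counts cover a shorter model than that. The GENCODE gene Gm43685 lies opposite Lgi2 but overlaps 0 bases of its exons.

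The start regions of Cxcl13 and Lgi2 are shown because their whole windows differ most in CpG content among the 3 genes with a RefSeq promoter window. This window runs from 250 bases before the start to 50 after it. CpG dinucleotides are in capitals, and each run ends at the base before the first annotated start. Each run shown holds 2 CpGs, so most CpGs of the Lgi2 window lie outside its run. The Cxcl13 run is chr5:95956689-95956938 on the plus strand, and the Lgi2 run is chr5:52566463-52566556 on the minus strand, both from GRCm38.p6.
Cxcl13: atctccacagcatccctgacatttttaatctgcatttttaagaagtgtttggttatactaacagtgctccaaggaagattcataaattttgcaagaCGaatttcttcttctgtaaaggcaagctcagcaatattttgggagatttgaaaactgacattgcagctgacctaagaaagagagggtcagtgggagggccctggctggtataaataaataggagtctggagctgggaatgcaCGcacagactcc
Lgi2: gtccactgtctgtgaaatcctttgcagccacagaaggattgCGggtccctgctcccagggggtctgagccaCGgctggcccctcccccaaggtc

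The whole Cxcl13 window held 3 CpGs, which is 0.208 of the number its base composition predicts. The Lgi2 window held 27 CpGs, a ratio of 0.669, and the Pla2g12b window held 9, a ratio of 0.332. The median ratio over 32851 windows of the genome was 0.384, so these genes lay on both sides of it. On both strands, the letters TATAAA matched in the Cxcl13 window and in 13.6% of all windows, CCAAT matched in the Lgi2 window and in 37.4%, and CANNTG matched in the Pla2g12b and Cxcl13 windows and in 72.3%. The letters TAATTG matched in none of the 3 windows and in 8.00% of all. The matches of TATAAA and CANNTG in the Cxcl13 window do not overlap.

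With M standing for 1000000 reads, total counts lay between 2.17 and 13.7 M in single oocytes around a median of 6.93 M, and group medians lay between 6.66 and 7.16 M. Levels are given as counts per 1000000 reads of an oocyte or a group (CPM). A pooled level sums all oocytes of a group, and its 95% interval is the exact Poisson interval, which covers counting error only because amplified reads are not independent molecules. A count of 3 reads amounts to between 0.0181 and 0.0207 pooled CPM, and to between 0.419 and 0.450 CPM in an oocyte of median depth, so median in vivo GROs sit near this floor for Pla2g12b, Cxcl13 and Lgi2 (0.576, 0.273 and 0.652 CPM) and above it for Psd2 (1.76 CPM). Markers of oocytes were abundant, with group medians of their summed level between 25186 and 53453 CPM for 12 of 12 markers. Of these, Sohlh1 was past 4-fold downwards in all 3 growth comparisons (-3.66 in vivo, -2.91 gonad-derived and -4.22 iPSC-derived), and Nlrp5 (-2.41) and Zp2 (-2.08) in that of iPSC-derived oocytes. The in vivo FGO 7 had a growth index (explained with the growth measure further on) of 32.1, well below the group median of 100. In vivo FGOs 22, 5 and 19 were also low, at 58.47, 58.86 and 68.15. With FGO 7 they lay below every cultured FGO, the lowest of which had 69.2. The 6 dpp FGO 12 had 1846 CPM of summed granulosa markers against a group median of 341 CPM. Values without in vivo FGO 7 or without 6 dpp FGO 12 are given with the ratios of the members and markers they enter. No ratio was computed without all the in vivo FGOs of low index.

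Pla2g12b was lowest in in vivo GROs and close to its highest level in all FGO groups but the 6 dpp oocytes. In in vivo GROs it was at 0.952 CPM (95% interval 0.807 to 1.11, 24 oocytes), with a lowest oocyte of 0, a median of 0.576 and a highest of 3.59 CPM. Gonad-derived GROs pooled to 4.50 CPM (4.18 to 4.85), and their oocytes ran from 0.146 through a median of 4.41 to 12.1 CPM. In iPSC-derived GROs the pooled level was 7.37 CPM (6.97 to 7.80), with oocytes from 2.29 through 6.99 to 18.0 CPM. The 3 GRO groups thus stood in the order in vivo, gonad-derived and iPSC-derived, with overlapping ranges. In vivo FGOs pooled to 9.77 CPM (9.27 to 10.3; oocytes 5.37, 8.68 and 18.0 as lowest, median and highest). Gonad-derived FGOs were at 9.05 CPM (8.60 to 9.53; 2.27, 8.63 and 14.8). The iPSC-derived FGOs were at 9.26 CPM (8.80 to 9.73; 3.15, 7.45 and 18.6). The ranges of these FGO groups overlapped, though 7 of 24 iPSC-derived FGOs lay below every in vivo FGO and 1 above, and 6 dpp FGOs were lower at 4.84 CPM (4.51 to 5.20; 0.923, 4.90 and 8.15).

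Cxcl13 had a lower pooled level in every GRO group than in every FGO group. Its pooled level in in vivo GROs was 0.513 CPM (0.409 to 0.636), the oocytes ran from 0 through 0.273 to 1.86 CPM, and 8 of 24 had no read. Gonad-derived GROs were at 2.69 CPM (2.44 to 2.96; 0, 2.66 and 6.76 as lowest, median and highest oocyte). The iPSC-derived GROs were at 1.75 CPM (1.55 to 1.97; 0, 1.55 and 6.65). Oocytes without a read remained in all 3 GRO groups, 2 of 24 gonad-derived and 4 of 23 iPSC-derived oocytes among them. No FGO was without a read. Pooled FGO levels were 5.95 CPM in vivo (5.56 to 6.36; 1.88, 6.02 and 9.22), 5.21 CPM at 6 dpp (4.86 to 5.58; 0.770, 5.23 and 8.90) and 5.64 CPM in gonad-derived oocytes (5.28 to 6.01; 2.87, 5.70 and 10.7). The iPSC-derived FGOs were the lowest of the 4 FGO groups at 4.05 CPM (3.75 to 4.37; 0.678, 3.88 and 10.1).

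Psd2 (Entrez 74002, plus strand, chr18:35963872-36014715 of GRCm38) was at its highest pooled level in iPSC-derived GROs, and gonad-derived GROs stood slightly above the highest FGO group. In vivo GROs were at 2.22 CPM (1.99 to 2.46; 0, 1.76 and 6.43 as lowest, median and highest oocyte). The gonad-derived GROs were at 13.0 CPM (12.4 to 13.6; 1.64, 12.6 and 30.4). In iPSC-derived GROs the level reached 22.3 CPM (21.6 to 23.1; 4.43, 24.0 and 37.9). All but 1 of 23 iPSC-derived GROs lay above the highest in vivo GRO. FGOs stood at 8.80 CPM in vivo (8.33 to 9.30; 4.25, 8.09 and 18.0), 11.9 CPM gonad-derived (11.3 to 12.4; 5.75, 11.5 and 27.4) and 9.43 CPM iPSC-derived (8.97 to 9.91; 3.73, 7.90 and 21.5). The 6 dpp FGOs stood apart at 3.84 CPM (3.54 to 4.16; 1.85, 3.72 and 6.66), below the other FGO groups and with 1 of 24 oocytes above the highest in vivo GRO.

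For Lgi2, gonad-derived oocytes had the highest pooled level of each stage, but their GRO values were among those that chose the genes. In vivo GROs were at 0.810 CPM (0.677 to 0.961; 0, 0.652 and 2.89). Gonad-derived GROs were at 5.77 CPM (5.40 to 6.16; 0.909, 6.12 and 10.4). The iPSC-derived GROs were at 1.76 CPM (1.56 to 1.97; 0.281, 1.86 and 4.64), nearer to the in vivo level than to the gonad-derived level. Among FGOs, the in vivo oocytes were at 3.33 CPM (3.03 to 3.64; 1.65, 2.98 and 5.31) and 6 dpp oocytes at 2.94 CPM (2.68 to 3.22; 0.154, 2.77 and 5.54). Gonad-derived FGOs were at 5.15 CPM (4.81 to 5.52; 1.63, 4.28 and 9.97), and iPSC-derived FGOs were at 2.12 CPM (1.90 to 2.35; 0.50, 2.12 and 4.60). The ranges of all 4 FGO groups overlapped.

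**Figure D1:**
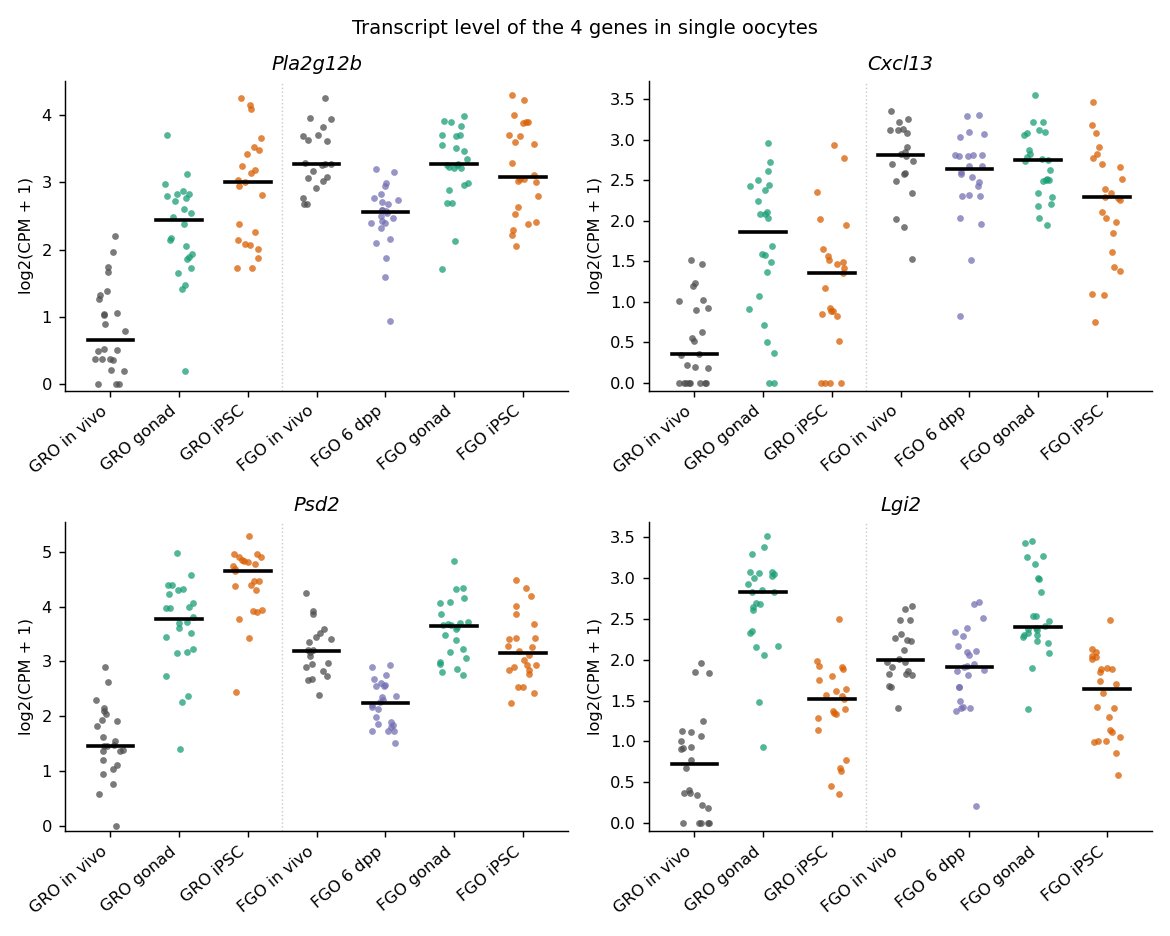
Level of the 4 genes in each oocyte as log2(CPM + 1), by group, with GROs left and FGOs right of the dotted line. Each point is 1 oocyte and the bar is the group median. In vivo GROs are lowest in all 4 panels, and iPSC-derived GROs are highest for Psd2 at a median of 24.0 CPM.

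Per kilobase of the deposited exonic length, the 4 genes could be compared with each other. In in vivo FGOs the values were 7.97 CPM per kilobase for Pla2g12b, 4.50 for Cxcl13, 1.72 for Psd2 and 1.50 for Lgi2. In iPSC-derived GROs Pla2g12b at 6.02 and Psd2 at 4.35 CPM per kilobase led, and Cxcl13 at 1.32 and Lgi2 at 0.790 followed. When the 7 groups of a gene were put in order of pooled level, most neighbours differed by less than the spread between oocytes, taken as the larger of the 2 standard deviations. That spread is between oocytes, which are not replicates of a group, so no step was tested. For Pla2g12b the only step beyond it separated gonad-derived from in vivo GROs, 3.53 CPM between means against an SD of 2.52 CPM. The values of these groups chose the genes, so nothing is read from that step. No step was beyond it for Cxcl13. Psd2 had 3 such steps, iPSC-derived above gonad-derived GROs (8.92 against 7.87 CPM), in vivo above 6 dpp FGOs (4.87 against 3.42) and 6 dpp FGOs above in vivo GROs (1.66 against 1.48). For Lgi2 the step from in vivo to iPSC-derived GROs was just beyond it, at 1.03 against 1.01 CPM. The other steps that involve in vivo or gonad-derived GROs also contain values that chose the genes.

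Ratios between groups are given as the log2 of pooled CPM + 0.5 over pooled CPM + 0.5, a scale that understates changes of genes this low, with a 95% interval from the exact binomial split of the reads. A gene counts as past a size rule when the ratio reaches 4-fold or 2-fold on that scale. For growth in vivo, which asks what changes from GRO to FGO in the ovary, Pla2g12b was 2.82 higher (2.65 to 2.99) and Cxcl13 2.67 higher (2.48 to 2.85). For both, every in vivo FGO lay above every in vivo GRO. Psd2 was 1.77 higher (1.63 to 1.92) and Lgi2 1.55 higher (1.35 to 1.74), with 15 and 12 of 20 FGOs above all 24 GROs. All 4 genes were at least 2-fold higher, against 10.4% of 13148 genes, and 2 were at least 4-fold higher, against 3.07%. With no pseudocount Lgi2 was also 4.11-fold higher, and with a pseudocount of 2 CPM no member was at least 4-fold higher. The genes carry the name of growth-induced genes, so nothing is read from these counts. Without in vivo FGO 7 the ratios were 2.85, 2.70, 1.74 and 1.55 in the same order.

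The rule of choice used gonad-derived against in vivo GROs (IVD@GRO), the comparison that asks what oocyte formation in culture changes. The paper reports that GROs of both cultured sources were larger than in vivo GROs. The part of oocyte size in these differences was not tested here. Psd2 was 2.31 higher on the log2 scale (2.17 to 2.45) and Lgi2 2.26 higher (2.08 to 2.44). Pla2g12b was 1.78 higher (1.60 to 1.96) and Cxcl13 1.66 higher (1.46 to 1.85). All 4 were at least 2-fold higher, beside 4.30% of 13059 genes, and 2 were at least 4-fold higher, beside 0.651%. With no pseudocount all 4 were at least 4-fold higher, and with a pseudocount of 2 CPM none was. Nothing is read from these counts, since they describe the choice. Of 24 gonad-derived GROs, 22 lay above the highest in vivo GRO for Lgi2, 20 for Psd2, 15 for Cxcl13 and 13 for Pla2g12b. Taking the genes jointly, 8 gonad-derived GROs were above it for all 4 genes, 7 for 3 genes, 8 for 2 genes and 1 for a single gene.

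The iPSC-derived GROs, which the rule did not use, differed from gonad-derived GROs in opposite directions for different members. This comparison (IVP@GRO) asks what the step from stem cell to germ cell adds. The sources also differ in the origin of the germ cells and in how the ovary was rebuilt, which cannot be told apart from that step. Psd2 was 0.76 higher in iPSC-derived GROs (0.68 to 0.84) and Pla2g12b 0.65 higher (0.53 to 0.78). Cxcl13 was at -0.50 (-0.68 to -0.33) and Lgi2 at -1.48 (-1.63 to -1.32). Lgi2 was thus the only member at least 2-fold lower, against 1.80% of 13029 genes. For Lgi2 the ranges overlapped, with 17 of 24 gonad-derived GROs above all 23 iPSC-derived GROs and 5 of 23 iPSC-derived GROs below all gonad-derived GROs. Both comparisons use the gonad-derived GROs, which the choice of members had picked as high.

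Set directly beside in vivo GROs, iPSC-derived GROs were 3.07 higher for Psd2 (2.94 to 3.20) and 2.44 higher for Pla2g12b (2.27 to 2.61). They were 1.15 higher for Cxcl13 (0.94 to 1.35) and 0.79 higher for Lgi2 (0.58 to 0.99). At least 4-fold higher were 2 of the 4 genes, against 1.07% of 13136 genes, and at least 2-fold higher were 3, against 5.61%, although with no pseudocount Lgi2 was also 2.17-fold higher. This comparison shares the in vivo GROs with the rule of choice, and they cannot be read as independent. Of 23 iPSC-derived GROs, 22 lay above the highest in vivo GRO for Psd2, 16 for Pla2g12b, 8 for Cxcl13 and 2 for Lgi2. Only 1 oocyte was above it for all 4 genes, 6 for 3 genes, 11 for 2 genes and 4 for a single gene, and 1 was above it for none.

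In culture, the ratios of FGOs to GROs differed among the 4 genes. In gonad-derived oocytes Cxcl13 was 0.94 higher in FGOs than in GROs (0.80 to 1.09) and Pla2g12b 0.93 higher (0.81 to 1.05). Psd2 stood at -0.12 (-0.21 to -0.04) and Lgi2 at -0.15 (-0.28 to -0.02). None of the 4 was at least 2-fold higher, against 5.82% of 13068 genes, although with no pseudocount Cxcl13 was 2.09-fold and Pla2g12b 2.01-fold higher. Nothing is read from that count, since the gonad-derived GROs in its denominator were among the values that chose the genes as high. Leaving out gonad-derived GRO 24 took Pla2g12b to 1.04, and leaving out gonad-derived GRO 12 took Cxcl13 to 1.03. In iPSC-derived oocytes Cxcl13 was 1.02 higher in FGOs (0.85 to 1.18), Pla2g12b 0.31 higher (0.21 to 0.41) and Lgi2 0.21 higher (0.03 to 0.40). Psd2 was lower in iPSC-derived FGOs than in GROs, at -1.20 (-1.28 to -1.12), and 12 of 23 GROs lay above every FGO. In that comparison 1 member was at least 2-fold higher, Cxcl13, against 6.69% of 13115 genes, and 1 at least 2-fold lower, Psd2, against 15.3%. The Cxcl13 ratio is at the edge of the size rule and ran from 0.94 to 1.15 as single oocytes were left out, below it for 19 of them.

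**Figure D2:**
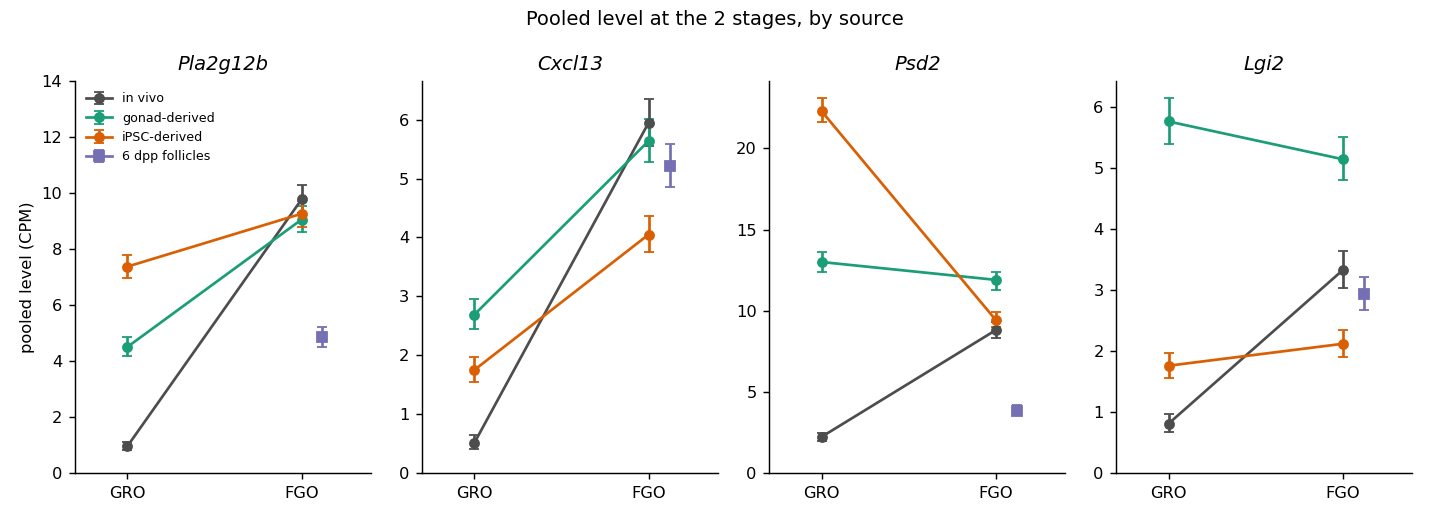
Pooled level in CPM of the 4 genes in GROs and FGOs, with lines joining the stages of a source and bars giving the exact Poisson 95% interval. All 4 genes are higher in FGOs than GROs in vivo, whereas Psd2 goes from 22.3 to 9.43 CPM in iPSC-derived oocytes.

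At the FGO stage, Pla2g12b of gonad-derived and iPSC-derived oocytes stood near the in vivo level, as did Cxcl13 of gonad-derived and Psd2 of iPSC-derived oocytes. Lgi2 stood above it in gonad-derived and below it in iPSC-derived oocytes. Gonad-derived against in vivo FGOs gave -0.10 for Pla2g12b (-0.21 to -0.00) and -0.07 for Cxcl13 (-0.20 to 0.05), and 0.41 for Psd2 (0.31 to 0.51) and 0.56 for Lgi2 (0.42 to 0.71). The iPSC-derived against in vivo FGOs gave -0.07 for Pla2g12b (-0.17 to 0.03), 0.09 for Psd2 (-0.01 to 0.20), -0.50 for Cxcl13 (-0.64 to -0.37) and -0.55 for Lgi2 (-0.72 to -0.38). Within culture (IVP@FGO), iPSC-derived FGOs were at -1.11 for Lgi2 against gonad-derived FGOs (-1.26 to -0.96), the 1 member at least 2-fold lower, against 3.90% of 12889 genes. With a pseudocount of 2 CPM or with medians Lgi2 was less than 2-fold lower, and with no pseudocount it was 2.43-fold lower. Without in vivo FGO 7, the ratios to in vivo FGOs were -0.13 for Pla2g12b, -0.11 for Cxcl13, 0.45 for Psd2 and 0.56 for Lgi2 in gonad-derived oocytes. They were -0.10, -0.54, 0.13 and -0.55 in the same order in iPSC-derived oocytes. In IVP@FGO the other members stood at -0.43 for Cxcl13, -0.32 for Psd2 and 0.03 for Pla2g12b. Lgi2 was thus lower in iPSC-derived than in gonad-derived oocytes at both stages, while Psd2 was higher at the GRO stage and lower at the FGO stage.

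The 6 dpp FGOs, which met culture only as follicles, were the FGO group with low Psd2 and Pla2g12b. Against in vivo FGOs (IVG@FGO), Psd2 was at -1.10 (-1.23 to -0.97) and Pla2g12b at -0.94 (-1.06 to -0.82). Cxcl13 at -0.18 (-0.30 to -0.05) and Lgi2 at -0.15 (-0.32 to 0.01) were closer to the in vivo level. Psd2 was the 1 member at least 2-fold lower, against 3.12% of 12932 genes, although with no pseudocount Pla2g12b was also 2.02-fold lower. With a pseudocount of 2 CPM no member was at least 2-fold lower. Psd2 had 16 of 24 oocytes below the lowest in vivo FGO. Gonad-derived FGOs, which had passed IVD before the same growth step (IVD@FGO), were 1.51 higher than 6 dpp FGOs for Psd2 (1.39 to 1.63). That was the 1 member at least 2-fold higher, against 1.64% of 12977 genes. Pla2g12b was 0.84 higher (0.72 to 0.96), Lgi2 0.72 higher (0.57 to 0.86) and Cxcl13 0.10 higher (-0.02 to 0.23). Both comparisons share the 6 dpp oocytes. Without 6 dpp FGO 12, Psd2 was at -1.12 in IVG@FGO and 1.53 in IVD@FGO, Pla2g12b at -0.98 and 0.87, Cxcl13 at -0.20 and 0.13, and Lgi2 at -0.15 and 0.72. Without in vivo FGO 7, the IVG@FGO ratios were -1.06 for Psd2, -0.97 for Pla2g12b, -0.21 for Cxcl13 and -0.16 for Lgi2. In vivo FGOs 19, 5 and 7, all low in the growth index, held the highest Psd2 of their group, at 18.0, 14.2 and 13.5 CPM. In vivo FGO 22, also low in the index, had 6.71 CPM. Whether Psd2 stays at least 2-fold lower without all of them was not computed.

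To place cultured GROs on the path of growth, the log2 difference from in vivo GROs was divided by the difference between in vivo FGOs and GROs. On this scale 0% is the in vivo GRO level and 100% the in vivo FGO level. In gonad-derived GROs Pla2g12b was at 63.2%, Cxcl13 at 62.0%, Psd2 at 130% and Lgi2 at 146%. The median of the 402 other genes past 4-fold upwards in the growth of in vivo oocytes was 30.2%, with quartiles of 13.7% and 48.4%, and 2.24% of them were above 100%. Psd2 and Lgi2 had thus passed the level of in vivo FGOs before growth was complete, but high places in these GROs follow from the choice of the genes. In iPSC-derived GROs the places were 173% for Psd2, 86.4% for Pla2g12b, 50.8% for Lgi2 and 43.1% for Cxcl13. There the median of the 402 genes was 23.8%, with quartiles of 5.54% and 39.3%, and 1.49% were above 100%. Among the 1369 genes at least 2-fold higher in vivo, which include the size of change of Psd2 and Lgi2, the medians were 31.3% and 20.9%, and 5.04% and 4.82% were above 100%. All places share the in vivo GROs with the rule.

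**Figure D3:**
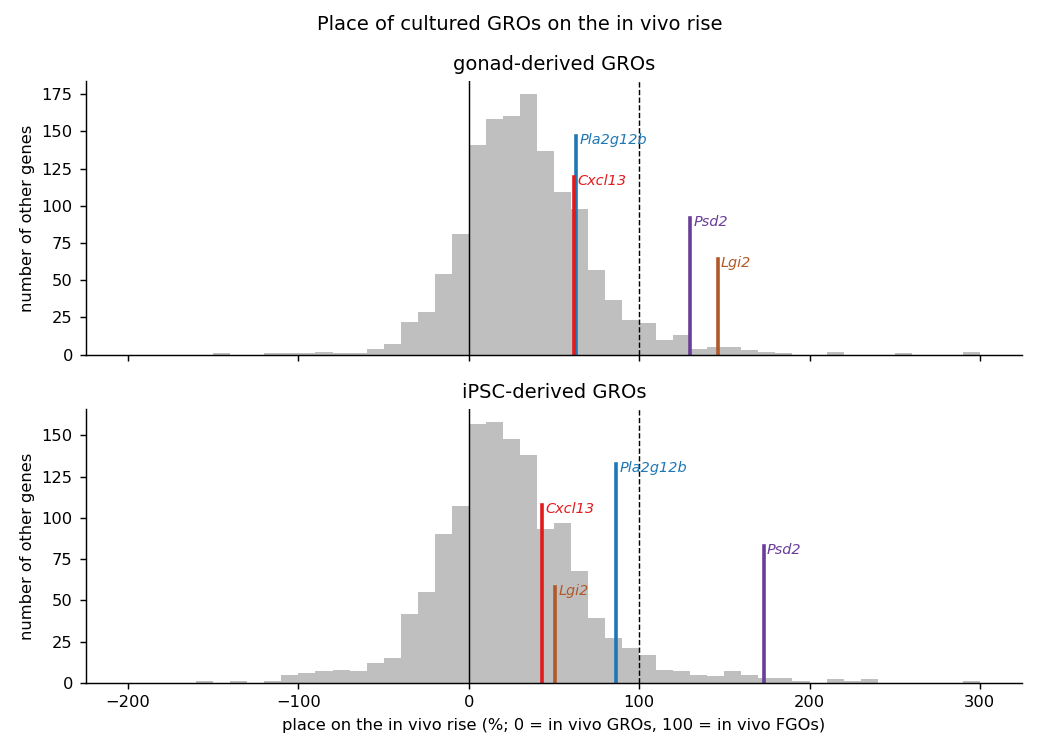
Number of genes, other than the 4, at each place on the in vivo rise in gonad-derived and iPSC-derived GROs, for the 1369 genes past 2-fold upwards in the growth of in vivo oocytes. The outermost bars include values beyond the axis. Coloured lines mark the 4 genes, with Psd2 at 130% and 173%, beyond the in vivo FGO level at 100%.

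To set the progress of growth beside the members, a growth index was computed for each oocyte. It is the mean log2(CPM + 1) of those 402 genes minus that of 256 genes past 4-fold downwards, without the 4 members, scaled so that the in vivo medians are 0 in GROs and 100 in FGOs. In vivo GROs ran from -27.3 to 14.8 and in vivo FGOs from 32.1 to 108. Gonad-derived GROs had a median of 27.6, with 19 of 24 above the highest in vivo GRO, and iPSC-derived GROs a median of 19.4, with 15 of 23 above it. Medians of cultured FGOs lay between 82.5 and 85.1. The share of each member's difference that goes with this shift was not tested, and the in vivo oocytes set both ends of the index.

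Within a GRO group the members related to the index in different ways, given here as Pearson r of log2(CPM + 1) over oocytes that may share an animal or culture. Cxcl13 followed it closely, with r of 0.84 over 24 gonad-derived and 0.91 over 23 iPSC-derived GROs, and 0.41 over 24 in vivo GROs. Pla2g12b had r of 0.47 and 0.29 in the same cultured groups and 0.65 in vivo. Psd2 had r of -0.00 in gonad-derived, 0.53 in iPSC-derived and 0.13 in in vivo GROs. Lgi2 had r of -0.31, 0.37 and -0.17. Total count had r between -0.42 and 0.15 with the members in these 3 groups, the lowest for Lgi2 in iPSC-derived GROs, where rho was -0.14. The members were themselves loosely related, with r between -0.33 and 0.60 for the 6 pairs in each of the 3 groups, and the highest was Pla2g12b with Psd2 in iPSC-derived GROs.

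Some cultured GROs had an index inside the range of the in vivo GROs, 5 gonad-derived and 8 iPSC-derived oocytes, a view added after the correlations were seen. In these oocytes Cxcl13 ran from 0 to 0.633 CPM among gonad-derived and from 0 to 1.24 CPM among iPSC-derived GROs, and none lay above the highest in vivo GRO at 1.86 CPM. Psd2 ran from 1.64 to 30.4 and from 4.43 to 30.0 CPM, with 4 of 5 and 7 of 8 above the highest in vivo GRO at 6.43 CPM. Lgi2 ran from 5.46 to 10.4 CPM in the 5 gonad-derived oocytes, all of them above the in vivo maximum of 2.89 CPM, and from 0.281 to 2.96 CPM in the 8 iPSC-derived oocytes, 1 of them above it. Pla2g12b was above its in vivo maximum of 3.59 CPM in 2 of 5 and 5 of 8 oocytes. The gonad-derived values and the in vivo maxima are among those that chose the genes, so they are a description. The 5 gonad-derived oocytes had indices between -0.41 and 13.8 and the 8 iPSC-derived oocytes between -4.78 and 13.27, against an in vivo median of 0.

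**Figure D4:**
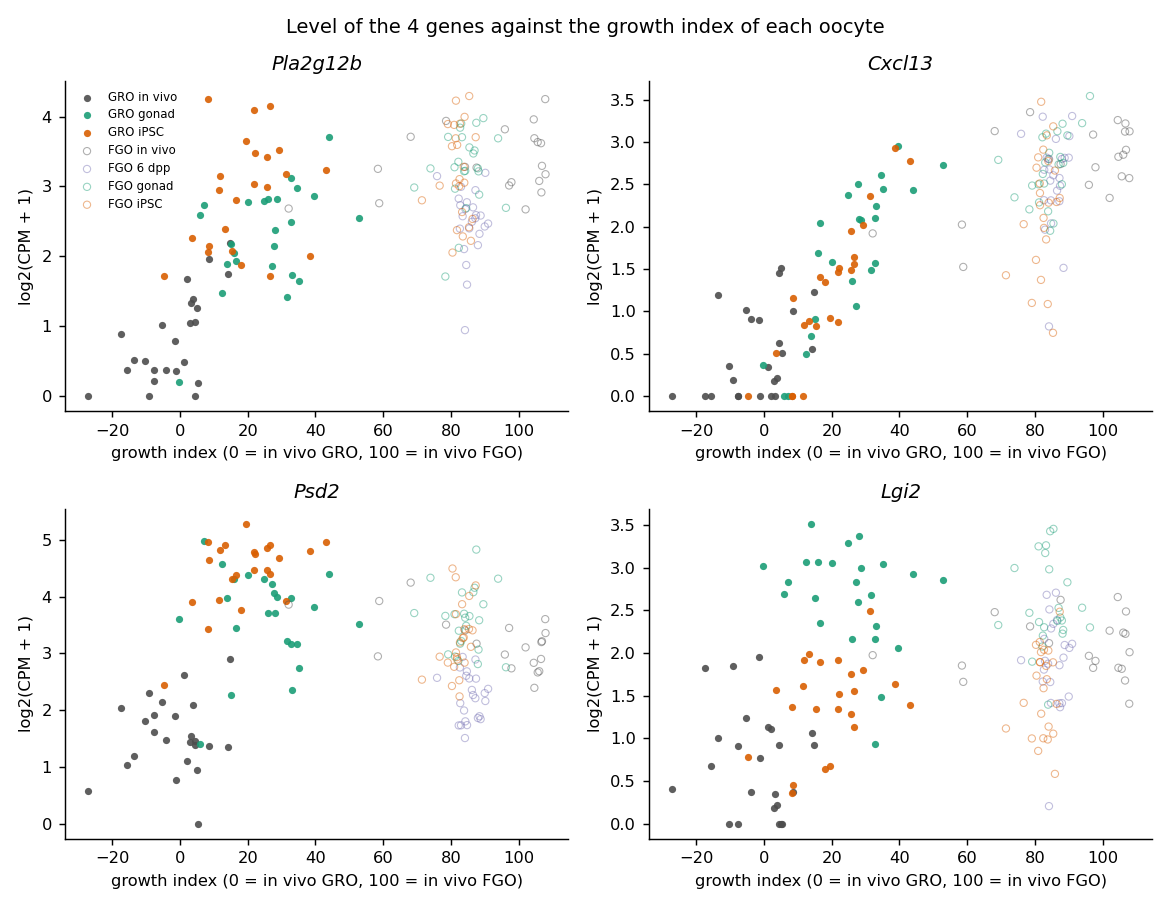
Level of the 4 genes, as log2(CPM + 1), against the growth index of each oocyte, with filled points for GROs and open points for FGOs. Cxcl13 rises along the index in every GRO source. Of the cultured GROs with an index in the in vivo range, 4 of 5 gonad-derived and 7 of 8 iPSC-derived oocytes lie above the highest in vivo GRO for Psd2.

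The genes whose pattern was most like that of each member over all 163 oocytes were named by Pearson r of log2(CPM + 1) among 14228 genes, which mixes differences between groups and within them. Nearest to Pla2g12b were Fam90a1a (r of 0.78), Creb3l4, a membrane-bound transcription factor (0.76), and Ptpre, a tyrosine phosphatase (0.75). Nearest to Cxcl13 were Slc6a15, a neutral amino acid transporter, Aqp9, a water and glycerol channel, and Dab2, an endocytic adaptor, each with r of 0.84. Those genes had large differences in growth in vivo, with log2 ratios of 5.16, 3.51 and 3.73. Nearest to Psd2 were Batf3, a bZIP transcription factor (0.75), Pcsk6, a proprotein convertase (0.74), and Slc16a11, a monocarboxylate transporter family member (0.72). Nearest to Lgi2 were Mro (0.70), Prom1, a membrane glycoprotein of plasma membrane protrusions (0.66), and Klb, a co-receptor for fibroblast growth factors (0.65).

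Not all of these neighbours showed the split between members in their own levels, although they were picked for similar patterns. From gonad-derived to iPSC-derived GROs, Creb3l4 (140 to 127 CPM), Ptpre (251 to 232) and Pcsk6 (30.9 to 26.8) were lower while their members were higher. Dab2 was higher (29.9 to 34.3 CPM) while Cxcl13 was lower. The other neighbours went the way of their member. Batf3 went from 2.05 CPM in in vivo GROs to 23.7 in gonad-derived and 27.5 in iPSC-derived GROs, and stood at 4.19 CPM in 6 dpp FGOs against 8.68 in in vivo FGOs. Mro went from 5.01 CPM to 46.6 in gonad-derived but 10.2 in iPSC-derived GROs, and Klb from 1.22 to 7.58 and 1.95 CPM. The members were not each other's nearest genes. Over all 163 oocytes the highest r between them was 0.60 for Pla2g12b with Cxcl13, and the lowest 0.21 for Cxcl13 with Psd2. Over the 71 GROs alone the highest was 0.78 for Pla2g12b with Psd2, and the lowest 0.33 for Pla2g12b with Lgi2. There Fam90a1a, Slc6a15, Batf3, Mro and Prom1 stayed among the 3 nearest genes of their member, and the other named neighbours did not. These GROs include the values that chose the genes.

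**Figure D5:**
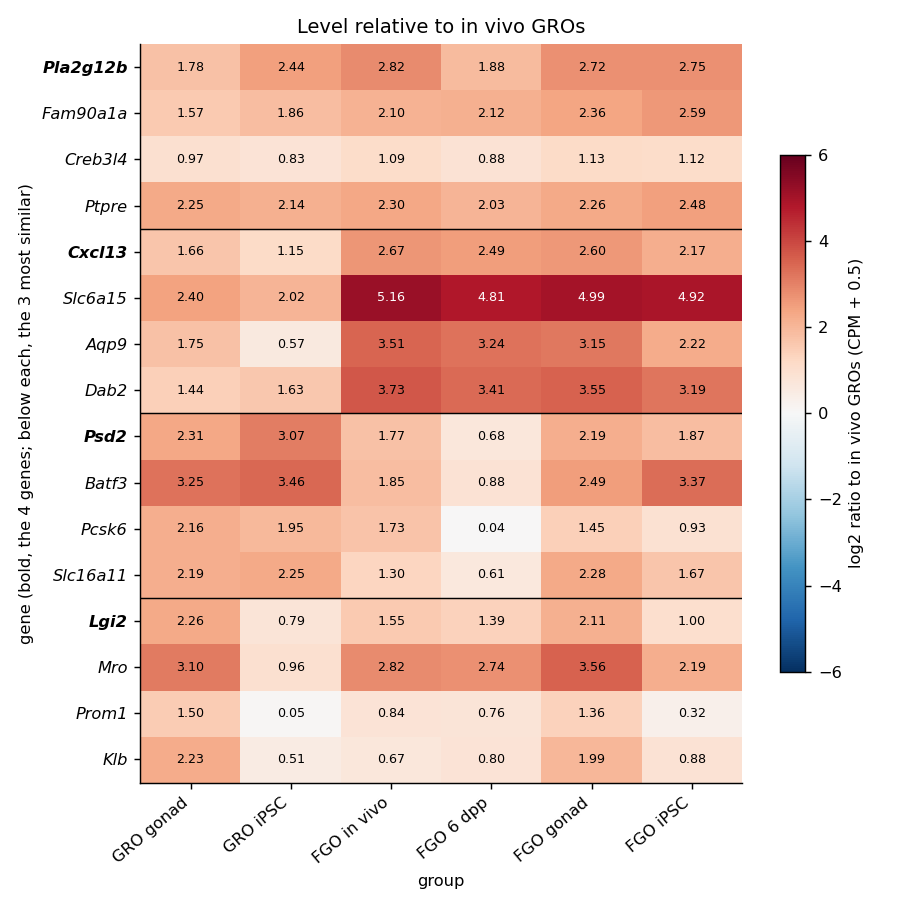
Log2 ratio of pooled CPM + 0.5 to that of in vivo GROs for the 4 genes (bold) and, below each, the 3 genes of most similar pattern over 163 oocytes, in the other 6 groups. Psd2 and Batf3 are highest in iPSC-derived GROs, and Lgi2 and its neighbours are higher in gonad-derived than in iPSC-derived GROs.

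Of 11 secreted phospholipases A2, 4 passed the filter on low counts for growth in vivo, with a median ratio of 0.74 against -0.11 over all genes. Pla2g12b alone of them was at least 4-fold apart there and in iPSC-derived against in vivo GROs. Its paralogue Pla2g12a was the most abundant, between 21.6 and 34.8 CPM in the 7 groups, or 18.1 CPM per kilobase in in vivo GROs against 0.776 for Pla2g12b. Among 11 matched genes of lipoprotein assembly and export, Surf4, a cargo receptor of the endoplasmic reticulum, led at 1219 to 1610 CPM. Mttp, which loads lipid onto apolipoprotein B, was the only one past 4-fold in any comparison, at -2.39 for growth of iPSC-derived oocytes. Mttp was lower in every FGO group, between 0.933 and 1.47 CPM, than in every GRO group, between 5.22 and 6.99 CPM. Apob stayed at or below 0.138 CPM, counted over a model of 1583 bases.

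Of 15 CXC chemokines, 5 passed the filter for growth in vivo, with a median ratio of -0.28, and Cxcl13 was the only one past 4-fold in any of the 11 comparisons. Cxcl14 was the most abundant, between 11.2 and 33.8 CPM. The CXCL13 receptor gene Cxcr5 was nearly absent, at no more than 0.0989 pooled CPM in any group. Of 17 chemokine receptors 4 passed the filter for growth in vivo, and Cxcr3, a receptor for interferon-induced chemokines, was 3.87 higher in in vivo FGOs, at 59.3 CPM against 3.60 CPM. Cxcr3 was also 2.25 higher in gonad-derived FGOs than GROs, and at -2.10 in iPSC-derived against gonad-derived FGOs. Among GROs it was 2.00 higher in IVD@GRO (3.60 to 15.9 CPM), just short of the 4-fold rule. It was at -1.54 in IVP@GRO and 0.46 higher in iPSC-derived than in in vivo GROs. Ackr3, a scavenger receptor, lay between 7.67 and 15.4 CPM. Among 16 matched CC and related chemokines, 7 passed the filter for growth in vivo, and their median ratio was 1.11. Ccl28, a mucosal chemokine, was past 4-fold in all 3 growth comparisons, at 2.18 in vivo, 3.15 in gonad-derived and 2.51 in iPSC-derived oocytes. Ccl2 and Ccl4, which attract monocytes and other leukocytes, were past it in growth of iPSC-derived oocytes, at 2.01 and 2.68, and Ccl2 at 2.01 in iPSC-derived against in vivo FGOs.

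Of 15 ARF exchange factors, 12 passed the filter for IVD@GRO, with a median of -0.19 against -0.04 over all genes, and Psd2 was the only one past 4-fold in any comparison. Its relatives Psd at 0.713 and Psd3 at 1.48 CPM in gonad-derived GROs stood below their in vivo levels of 1.53 and 1.74 CPM. Cyth2, an exchange factor of the cytohesin family, at 135 to 202 CPM and Fbxo8 at 153 to 353 CPM were the most abundant per kilobase. Of 20 matched ARF GTPases and their activating proteins, Arf1, a GTPase of the Golgi, led at 489 to 640 CPM, and Arfgap2 was the only one past 4-fold, at -2.34 for growth of iPSC-derived oocytes. Of 4 LGI genes only Lgi2 passed the filter, and Lgi1, Lgi3 and Lgi4 stayed at or below 0.325 CPM. Of 12 LGI receptors and partners, 8 passed the filter for IVD@GRO, with a median of -0.23. Dlg2 of this list stood at 3.35 CPM in in vivo, 12.0 in gonad-derived and 4.75 in iPSC-derived GROs. Adam22 stayed between 1.80 and 2.86 CPM, and the scaffold gene Dlg1 was the most abundant in FGOs, between 34.4 and 42.2 CPM. The potassium channel subunit gene Kcnab2 was at 2.10 in IVD@FGO and -2.05 in IVP@FGO, the same directions as Lgi2. Cntnap2, a neurexin family gene, was at -2.09 in iPSC-derived against in vivo FGOs.

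Markers of other cells were read beside these values, since CXCL13 is made by stromal and immune cells. Of 9 immune and stromal markers all matched, and their summed level had group medians between 114 and 530 CPM. Pdpn carried that sum, at 123 to 525 pooled CPM. In GROs the medians were 114 CPM in vivo, 265 CPM in gonad-derived and 458 CPM in iPSC-derived oocytes, with Pdpn at 123, 273 and 448 pooled CPM, the order in which Psd2 and Pla2g12b stood. Cd68, a macrophage marker, stood in the same order at 2.94, 4.11 and 5.79 pooled CPM. In IVD@GRO the 8 granulosa markers that passed the filter had a median ratio of -0.31, with Gja1 at -1.19 and Cyp19a1 at 1.07 (8.87 to 19.1 CPM). Cyp11a1 of the theca markers was 1.27 higher (0.389 to 1.64 CPM), and the 3 theca and stroma markers that passed had a median of 0.60. The part of these markers in the GRO differences of the 4 genes was not tested. Among the defining leukocyte markers, Ptprc, counted over a model of 1154 bases, and Adgre1 were at or below 0.0191 CPM and Cd68 at 2.04 to 5.79 CPM in all groups, and Ccl19 had 0 reads. Of 12 granulosa markers 10 matched, and their summed level had group medians of 129 to 172 CPM in GROs and 329 to 359 CPM in FGOs. Esr2 carried most of that sum, at 81.1 to 118 pooled CPM in GROs and 212 to 244 pooled CPM in FGOs. Per oocyte the sums ran from 59.6 to 312 CPM in GROs and from 238 to 1846 CPM in FGOs. Past 4-fold in the growth of in vivo oocytes were Gja1 (3.88), Cyp19a1 (2.79) and Hsd17b1 (2.68), and in that of gonad-derived oocytes Gja1 (3.26). Without in vivo FGO 7 the in vivo ratios were 3.94, 2.83 and 2.73. Their part in the growth differences of the 4 genes was not tested. In IVD@FGO, Inhba, Gja1 and Hsd17b1 were at -3.06, -2.78 and -2.24, but 6 dpp FGO 12 alone held 169, 1208 and 63.5 CPM of them. Without it the ratios were -1.55, -0.43 and -1.77, none past 4-fold. Inhba was at 2.28 in IVG@FGO, at 0.77 without that oocyte and at 2.24 without in vivo FGO 7. Hsd17b1 and Gja1 were at -2.15 and -3.69 in iPSC-derived against in vivo FGOs, and at -2.20 and -3.75 without in vivo FGO 7. Of 9 theca and stroma markers, group medians of the sum lay between 1.93 and 5.66 CPM, with a highest oocyte of 173 CPM, 6 dpp FGO 12, and Cyp11a1 at -2.19 in IVD@FGO was the only one past 4-fold, at -0.70 without that oocyte.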

How the data were processed

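Single oocytes were sequenced by Smart-seq2. The authors aligned reads to GRCm38 and spike-in sequences with STAR, named in the submitters' processing notes, and counted uniquely mapped exonic reads with QuasR over 1 randomly chosen transcript per gene. The deposited table holds raw counts for 21950 genes in 163 oocytes, 2.17 to 13.7 M reads each (M, 1000000), and an exonic length in bases per gene (unit other), deposited by the authors. Whether strand was used in counting is not given in the sources used here. Symbols came from the RefSeq table of GRCm38.p6, which matched 21907 identifiers, and the other 43 entered only totals. The table holds 0 spike-in rows. The study's own selection of oocytes by size was not applied.

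The labels name no animal or culture, so each group was 1 sample, no paired or replicated test was possible, and intervals cover counting error only. No 2 oocytes of a group had identical counts. Counts were pooled, scaled to CPM and compared with a pseudocount of 0.5 CPM. Genes entered with CPM above 1 in at least 3 oocytes of the groups compared. Named genes were the 4 members, list genes past 4-fold in a comparison or of highest level, and the 3 most similar genes per member. Some other list genes, among them relatives and receptors of members and cell markers, were named outside this rule. Members and lists were chosen with earlier results of these data known. Alternatives were TMM (edgeR 4.0.16), DESeq2 1.42.0 size factors, pseudocounts of 0.1 and 2 CPM, medians, each oocyte left out, and, chosen after the data were seen, a 2-fold rule and no pseudocount. Python 3.11.15, pandas 2.3.3, numpy 2.4.6, scipy 1.17.1, matplotlib 3.10.9 and R 4.3.3 were used. The ratio code was checked on simulated counts of genes more abundant than the members are in in vivo GROs. The interval code was not checked in this way.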

Additional observations from a re-analysis of the deposited data

Results flagged for a closer look

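Pooled differences that pointed in opposite directions in 2 sources or at 2 stages, with both counting intervals away from 0, were found for all 4 genes. With 1 sample per group, none of these differences was tested. Psd2 was 1.77 higher in FGOs than GROs in vivo but stood at -0.12 in gonad-derived and -1.20 in iPSC-derived oocytes, so the growth ratios differed by 1.89 and 2.97 on the log2 scale. Psd2 also changed side between stages when iPSC-derived oocytes were set against gonad-derived ones, from 0.76 in GROs to -0.32 in FGOs, a difference of 1.08. Lgi2 was 1.55 higher with growth in vivo and stood at -0.15 in gonad-derived oocytes, a difference of 1.70. Between gonad-derived and iPSC-derived oocytes, growth ratios of Lgi2 of -0.15 and 0.21 differed by -0.36. Against in vivo oocytes, iPSC-derived Cxcl13 stood at 1.15 in GROs and -0.50 in FGOs, a difference of 1.65, and Lgi2 at 0.79 and -0.55, a difference of 1.34. In FGOs, Lgi2 stood at 0.56 in gonad-derived and -0.55 in iPSC-derived oocytes against in vivo, a difference of 1.11. Gonad-derived Pla2g12b stood at 1.78 against in vivo in GROs and at -0.10 in FGOs, a difference of 1.88, where the FGO fold of 0.927 had an interval of 0.861 to 0.998, close to 1. The differences of 1.89, 1.70 and 1.88 contain the gonad-derived and in vivo GRO values that chose the genes, 2.97, 1.65 and 1.34 contain the in vivo GROs, and 1.08 and -0.36 contain the gonad-derived GROs. The difference of 1.11 contains no GRO values. These are descriptions and support nothing.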

How the results depend on the processing

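None of the 44 log2 ratios of the members, 4 genes in 11 comparisons, changed sign under any alternative where its interval excluded 0, in 308 recomputed values. TMM and DESeq2 scaling left all 44 within their counting intervals. Under a pseudocount of 2 CPM, 26 ratios left those intervals, under 0.1 CPM 13 did, and under the ratio of medians 22 did (the cause was not tested). The count of members at least 4-fold higher depends on that choice. In IVD@GRO it was 2, but 4 with a pseudocount of 0.1 CPM, with no pseudocount or with medians and 0 with 2 CPM. For growth in vivo it was 2, but 3 with no pseudocount and 0 with 2 CPM, and for iPSC-derived against in vivo GROs it was 2, but 1 with 2 CPM. The 2-fold rule, added after the data were seen, gave 4 members higher for growth in vivo and for IVD@GRO, and 1 each where 4-fold gave 0, namely higher and lower for growth of iPSC-derived oocytes, lower for IVP@GRO, IVP@FGO and IVG@FGO, and higher for IVD@FGO. The 2-fold counts depend on the setting too. For growth in vivo and for IVD@GRO, 4 members were higher, but 3 with 2 CPM, and for iPSC-derived against in vivo GROs 3, but 4 with 0.1 CPM, no pseudocount or medians and 2 with 2 CPM. For growth of gonad-derived oocytes, 0 members were higher, but 1 with 0.1 CPM, 2 with no pseudocount and 0 to 1 as single oocytes were left out. For growth of iPSC-derived oocytes, 1 was higher, but 0 with 2 CPM and 0 to 1 with single oocytes left out. For IVP@FGO, 1 was lower, but 0 with 2 CPM or medians, and for IVG@FGO 1, but 0 with 2 CPM and 2 with no pseudocount. Leaving out any single oocyte moved no count of members past 4-fold. No paired analysis was possible because the results come from no test and the numbers of oocytes pair no samples. The groups are 1 sample each, so differences between animals or cultures cannot be told apart from differences between groups, and median in vivo GROs lie near the floor of 3 reads for Pla2g12b, Cxcl13 and Lgi2.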
